A study of Macaca mulatta with 21 samples.

Results

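Expression of 10 genes of the rhesus macaque, of 14132 genes with a symbol of their own on the array, was described across 7 groups of cells. They are LOC712157, LOC695105, GCA, ST6GAL2, GSTK1, PTPRB, SP140, LCN2, SECISBP2L and HSBP1L1. They were chosen by their measured log2 difference from ORMES23, a line made from an IVF embryo, which was large in at least 1 reprogrammed pluripotent line. Those differences are therefore given as a description and carry no test. The genes are read by 19 probe sets that carry their symbol alone and by 3 more that are shared with another gene, of 52865 probe sets in all.

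Expression was measured on Affymetrix rhesus arrays, with 3 arrays (A, B and C, called biological replicates by the labels) for each group, 21 in all. ORMES23, labelled male, was derived from an IVF blastocyst. The cloned lines CRES-1 (labelled male) and CRES-3 (labelled female) are embryonic stem cells too, but their blastocysts were made by somatic cell nuclear transfer. RiPS1 (labelled male, from fetal skin fibroblasts), RiPS2 (labelled female, adult donor aged 10 years) and RiPS3 (labelled female, adult donor aged 8 years) are induced pluripotent lines. They were made with retroviruses carrying OCT4, SOX2, Klf4 and cMYC. The last group is skin fibroblasts from an adult female aged 8 years. All groups were grown on inactivated mouse embryonic fibroblasts as feeder cells, and the labels state that RNA was taken from undifferentiated colonies. Each pluripotent line is a single derivation, so a difference between lines speaks for those lines alone, and labelled sex, donor and route of derivation cannot be told apart in most pairs. The p-values measure the spread between arrays of a line, and nothing in the labels says how far apart the cultures of A, B and C were. In bulk RNA, fewer cells that express a gene and less RNA per cell cannot be told apart.

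Pluripotent lines are usually alike in the genes that hold them in that state, and they differ from each other in a small number of genes that 1 line expresses and another does not. Such genes need not belong to a pathway. Those described here include an iron-binding defence protein, calcium, sugar and glutathione enzymes or binding proteins, a receptor phosphatase, a chromatin reader of nuclear bodies, relatives of a selenoprotein factor and of a heat shock regulator, and transcribed gene copies. By the RefSeq table of the rhesus assembly T2T-MMU8v2.0, 8 of the 10 are protein coding, LOC712157 is a transcribed pseudogene and LOC695105 is a pseudogene. They lie on 8 chromosomes (LOC712157 and SECISBP2L on chromosome 7, GCA and SP140 on chromosome 12) and 0 lie on the X chromosome.

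All values are log2 intensities, so a difference of 1 is a 2-fold change. A level of log2 5, close to the median of each array (4.98 to 5.14), served as the limit of measurement. Where the dimmer line averaged under it, a fold change is given as a lower bound counted from log2 5. All 10 genes passed the filter of log2 5 on at least 3 arrays, but ST6GAL2 did so with 4 arrays, 3 of them of ORMES23, where it is high, so that its passing already required that line to be bright. HSBP1L1 passed with 8 arrays. The name "on or off" covers only part of the genes: 7 had a pluripotent line averaging under log2 5, while GCA, GSTK1 and LOC695105 stayed above it in all 6 pluripotent lines and differed by degree.

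The labels of the groups were checked on marker genes. The mean of 6 pluripotency markers lay between 10.08 and 10.73 on the pluripotent arrays and between 3.89 and 4.29 on the fibroblast arrays. The mean of 9 fibroblast markers was 9.40 to 9.50 in the fibroblasts and 6.06 to 6.91 elsewhere. Among the pluripotent lines, ORMES23 array A stood apart most. It differed at least 2-fold from the mean of the other ORMES23 arrays in 544 of 11142 genes tested (4.88%), against 0.0987% to 3.03% for the arrays of the reprogrammed lines. The fibroblast arrays A and B stood further apart, in 874 genes (7.84%) and 555 genes (4.98%), and every comparison with the fibroblasts rests on them. Among the 10 genes described here ORMES23 A did so in 5, of which 4 were higher. The lower one was PTPRB, at 5.87 on A against 6.96 on B and 6.83 on C. The mean of 7 definitive endoderm markers was 10.55 on ORMES23 A, 8.09 on B and 7.63 on C. It also varied within other lines, from 6.97 to 9.14 in CRES-1. The part of these markers in the differences was not tested. Values without ORMES23 A are given for LOC712157, GCA, SECISBP2L and HSBP1L1, but not for PTPRB.

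**Figure D1:**
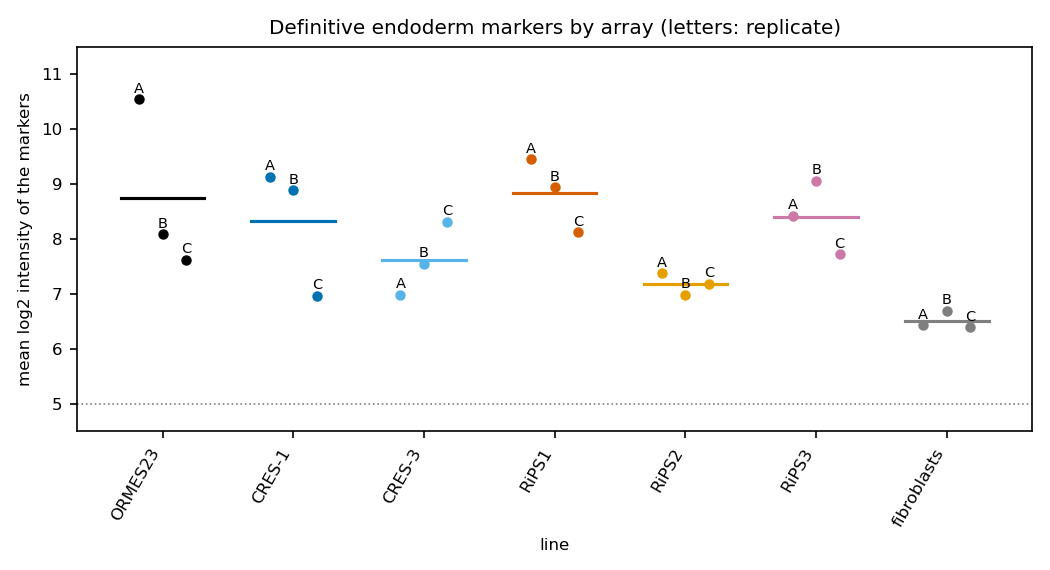
Mean log2 intensity of 7 definitive endoderm markers (vertical axis) on each of the 21 arrays by line (horizontal axis); points are arrays, with the replicate letter, bars are line means and the dotted line is log2 5. ORMES23 A is the highest array at 10.55, and the fibroblast arrays are the lowest group as a mean.

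The 10 genes varied more between pluripotent lines than most genes, as their choice requires. The gap between the highest and the lowest of the 6 pluripotent line means ran from 1.82 (SP140) to 4.36 (LOC712157), where the median gene had a gap of 0.44. ORMES23 was the highest pluripotent line for 4 of them and the lowest for 3. The count at least 2-fold away from ORMES23 was 3 of 10 in CRES-1, 8 in CRES-3, 5 in RiPS1, 8 in RiPS2 and 8 in RiPS3. Among all genes tested the shares were 1.01%, 2.59%, 3.15%, 1.58% and 1.58%; the choice of genes used these contrasts, so nothing is read from the excess. CRES-1 was the line nearest to ORMES23 on these genes, with a median absolute difference of 0.34 over the 10, against 2.15 in CRES-3, 0.96 in RiPS1, 1.80 in RiPS2 and 2.11 in RiPS3. That order belongs to the chosen genes. Over all genes tested the medians were 0.151 in CRES-1, 0.161 in CRES-3, 0.174 in RiPS1, 0.145 in RiPS2 and 0.154 in RiPS3.

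**Figure D2:**
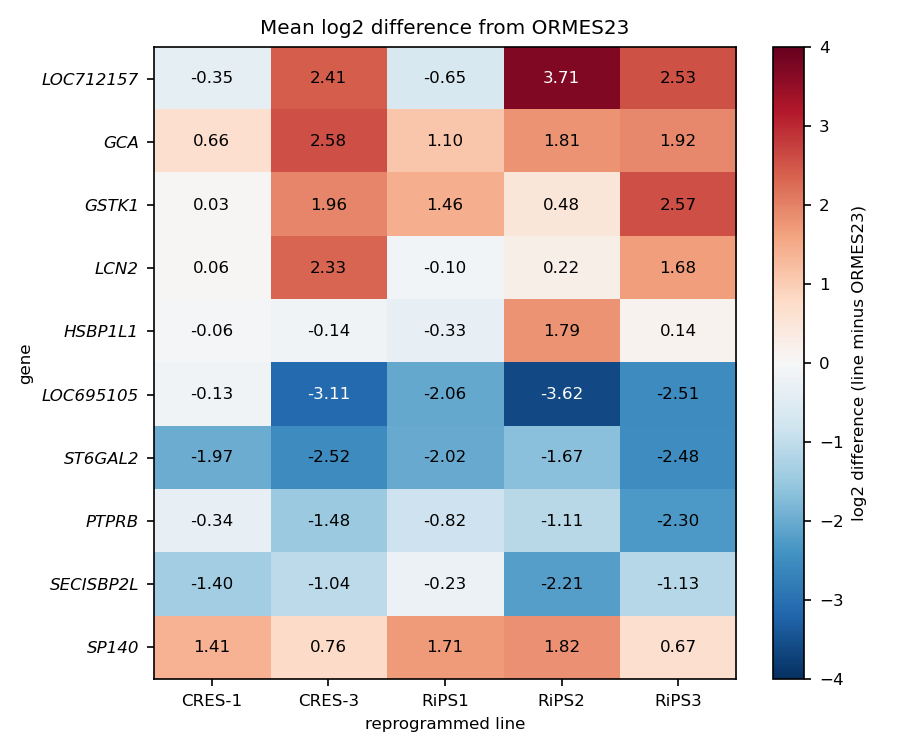
Mean log2 difference of each reprogrammed line (columns) from ORMES23 for the 10 genes (rows), with red for higher and blue for lower. LOC712157 reaches 3.71 and LOC695105 reaches -3.62 in RiPS2, while CRES-1 stays within 0.66 of ORMES23 for 7 genes.

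**Figure D3:**
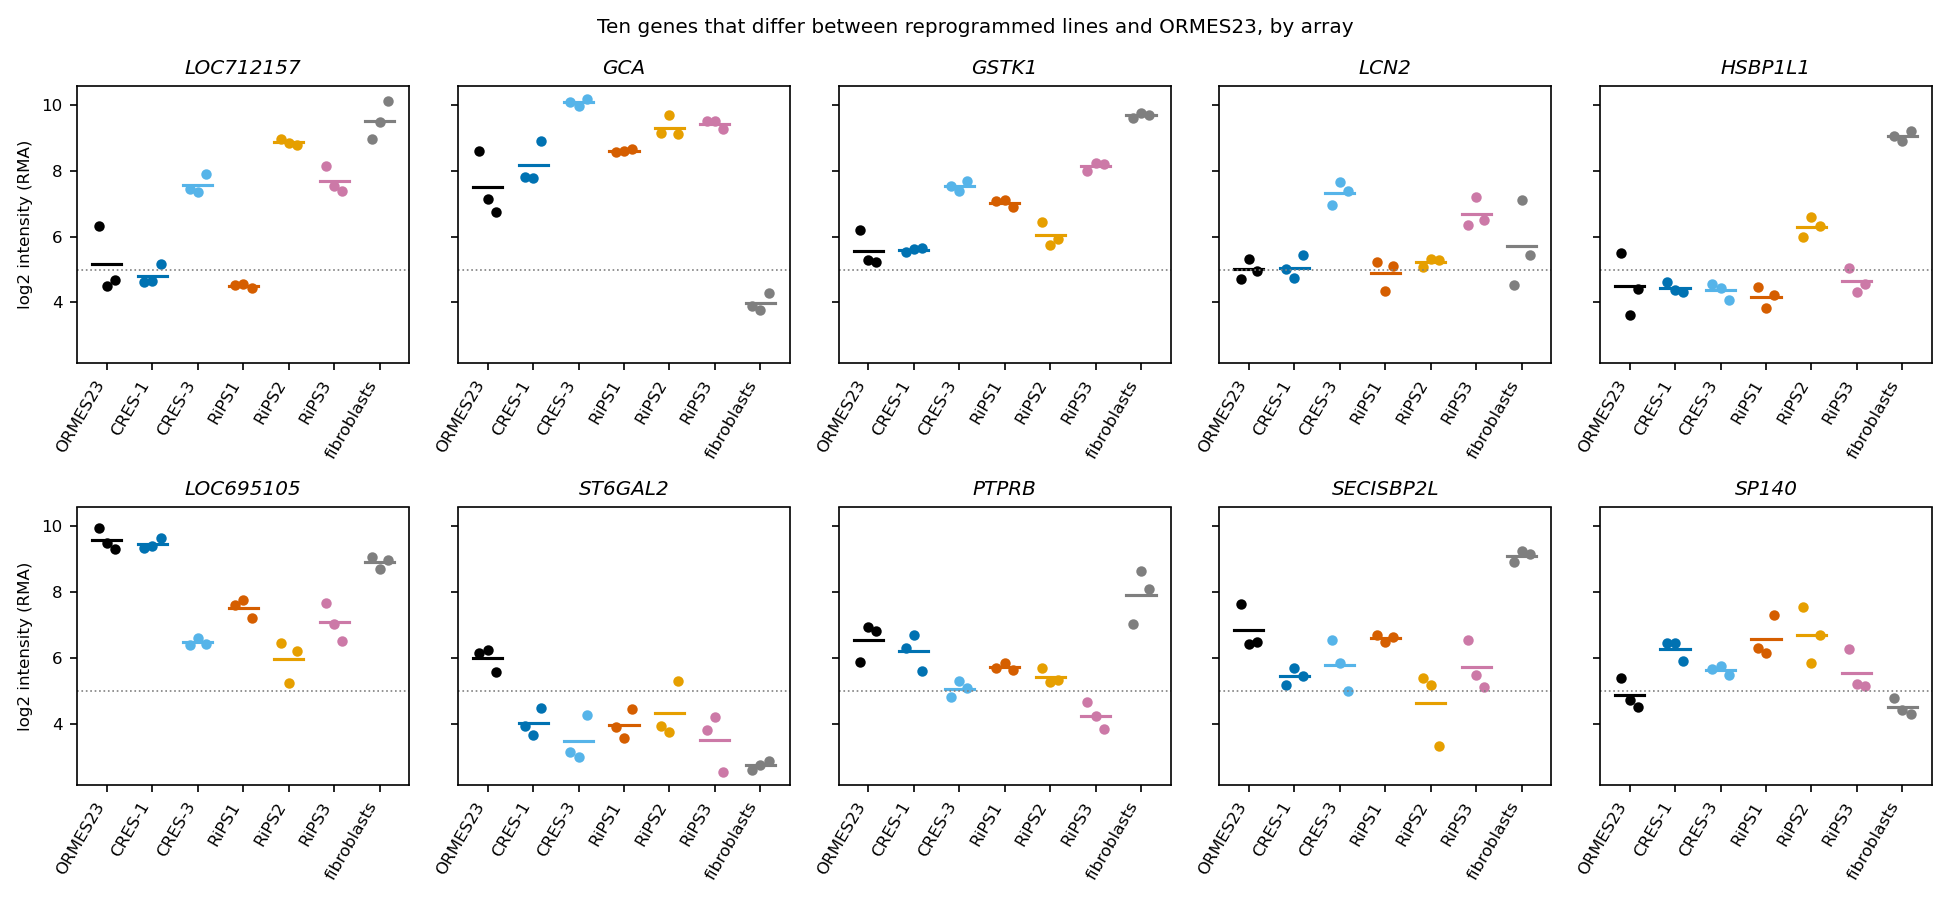
Log2 intensity (vertical axis) of the 10 genes on each array by line (horizontal axis); points are the 3 arrays, bars are line means and the dotted line is log2 5. The fibroblasts are the brightest group for 5 genes and the dimmest for 3.

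LOC712157, the transcribed pseudogene, was near the limit of measurement in the lines labelled male and bright in those labelled female. ORMES23 read 6.32, 4.49 and 4.68 on arrays A, B and C, CRES-1 read 4.63, 4.64 and 5.17, and RiPS1 read 4.53, 4.58 and 4.43. CRES-3 read 7.45, 7.36 and 7.89, RiPS2 read 8.98, 8.84 and 8.79, and RiPS3 read 8.14, 7.55 and 7.39. The 9 arrays of the labelled female pluripotent lines (7.36 to 8.98) did not overlap with the 9 of the labelled male ones (4.43 to 6.32). Of all genes tested, 45 (0.404%) showed no such overlap. The choice of the genes used ORMES23, whose arrays are among the labelled male ones, so nothing is read from this share. Labelled sex, donor and line cannot be told apart here. The female fibroblasts were brightest, at 8.95, 9.49 and 10.11. Against ORMES23 the difference was 2.41 (SE 0.37, n = 3 per line) in CRES-3, 3.71 in RiPS2 and 2.53 in RiPS3, while CRES-1 and RiPS1 averaged under log2 5. Without ORMES23 A, which alone of that line was above log2 5, the values were 2.99, 4.29 and 3.11. Since ORMES23 then averages under log2 5, the part of these values below that level is not measured. In the order of the line means, RiPS2 overlapped with the fibroblasts, and RiPS3 with CRES-3.

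GCA encodes grancalcin, a calcium-binding protein of the penta-EF-hand family that is abundant in neutrophils. It was expressed in every pluripotent line and stood under log2 5 in the fibroblasts (3.89, 3.76 and 4.30). ORMES23 was the lowest pluripotent line, at 8.60, 7.15 and 6.76, and CRES-3 the highest, at 10.09, 9.96 and 10.19. CRES-1 read 7.80, 7.77 and 8.91 and RiPS1 read 8.56, 8.60 and 8.66, both overlapping with ORMES23 in range. RiPS2 read 9.14, 9.69 and 9.10 and RiPS3 read 9.49, 9.51 and 9.26. As with LOC712157, the labelled female pluripotent arrays (9.10 to 10.19) lay above all the labelled male ones (6.76 to 8.91). The same limits apply, since the choice of GCA used ORMES23, and nothing is read from this either. Relative to ORMES23, GCA differed by 2.58 (SE 0.35, n = 3 per line) in CRES-3, 1.92 in RiPS3, 1.81 in RiPS2, 1.10 in RiPS1 and 0.66 in CRES-1. The value in RiPS1 rested partly on ORMES23 C and was 0.73 without that array. Without ORMES23 A it was 1.65, and CRES-3, RiPS3 and RiPS2 then stood at 3.13, 2.47 and 2.35.

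GSTK1 encodes the kappa class glutathione transferase, an enzyme of mitochondria and peroxisomes. It formed a graded series in which most neighbouring lines did not overlap. The fibroblasts led with 9.61, 9.76 and 9.68, followed by RiPS3 with 7.99, 8.23 and 8.19. CRES-3 read 7.53, 7.38 and 7.68, and RiPS1 read 7.06, 7.12 and 6.90. RiPS2 (6.45, 5.76 and 5.94), CRES-1 (5.52, 5.63 and 5.65) and ORMES23 (6.20, 5.28 and 5.22) came last, and ORMES23 overlapped with both of the others. Against ORMES23 the difference was 2.57 (SE 0.21, n = 3 per line) in RiPS3, 1.96 in CRES-3, 1.46 in RiPS1, 0.48 in RiPS2 and 0.03 in CRES-1.

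LCN2 encodes lipocalin 2, a secreted protein that withholds iron from bacteria by binding their siderophores. CRES-3 read 6.97, 7.64 and 7.39 and RiPS3 read 6.35, 7.19 and 6.51. The other pluripotent arrays all lay between 4.34 and 5.44. The fibroblasts, at 4.54, 7.10 and 5.45, differed among themselves (SD 1.30, n = 3) more than any pluripotent line did. LCN2 exceeded ORMES23 by 2.33 (SE 0.44, n = 3 per line) in CRES-3 and 1.68 in RiPS3. The remaining 3 lines were within 0.22 of ORMES23. Only 1 of the 4 LCN2 probe sets showed this: the other 3 read at most 3.38 on all 21 arrays and are uninformative at that level.

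HSBP1L1, a relative of the gene of heat shock factor binding protein 1 (HSBP1), stood above the limit of measurement in a single pluripotent line. RiPS2 read 5.999, 6.59 and 6.31. The other pluripotent lines had means between 4.18 and 4.65, and their brightest arrays were ORMES23 A at 5.50 and RiPS3 A at 5.06. The fibroblasts read 9.04, 8.92 and 9.20. RiPS2 lay 1.79 (SE 0.33, n = 3 per line) above ORMES23, which is at least 2.46-fold. The difference was 2.29 without ORMES23 A, but the bound stays the same, because ORMES23 averages under log2 5 with or without that array.

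LOC695105, annotated as a pseudogene, was as high in ORMES23 (9.95, 9.51 and 9.31) as in CRES-1 (9.34, 9.41 and 9.64), and the fibroblasts were close behind (9.06, 8.71 and 8.98). The other lines were lower and overlapped with each other in the order RiPS1 (7.63, 7.75 and 7.22), RiPS3 (7.67, 7.05 and 6.53), CRES-3 (6.41, 6.60 and 6.44) and RiPS2 (6.44, 5.25 and 6.21). The arrays of the 4 lower lines did not overlap with those of ORMES23. The difference from ORMES23 was -3.62 (SE 0.28, n = 3 per line) in RiPS2, -3.11 in CRES-3, -2.51 in RiPS3, -2.06 in RiPS1 and -0.13 in CRES-1. A second probe set of the gene gave -3.09, -2.66, -2.11, -1.54 and -0.01 in that order. Another, shared with LOC708725, gave -3.12, -3.42, -2.79, -2.05 and -0.02. A further probe set, shared with LOC711690 and LOC708725, stood under log2 5 on all 21 arrays and gave only -0.13, -0.28, -0.50, -0.26 and 0.03. Because of the sharing, the signal cannot be assigned to LOC695105 alone: RefSeq lists LOC708725 as protein coding on chromosome 15 and LOC695105 on chromosome 6.

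ST6GAL2 encodes a sialyltransferase that caps galactose on glycans with sialic acid. It was above log2 5 in ORMES23, at 6.17, 6.24 and 5.59, and on 1 other array of the 21, RiPS2 C at 5.31. The reprogrammed lines averaged 3.48 (CRES-3) to 4.33 (RiPS2) and overlapped with each other. The difference from ORMES23 ran from -1.67 in RiPS2 to -2.52 in CRES-3 (SE 0.44, n = 3 per line), with -1.97 in CRES-1. Counted from log2 5, ORMES23 was at least 2.00-fold higher than each reprogrammed line; how far below that level they lie is not measured. The mean of 6 trophoblast markers on the array (of 7 listed) moved with ST6GAL2 over the 18 pluripotent arrays (r = 0.63, and 0.70 for deviations from the line means). This describes arrays that share lines. Both values were the highest among the correlations of the genes described here with the marker sets, but others were close. With the fibroblast markers SP140 had an r of 0.62 over the 18 arrays, and GCA one of -0.63 for deviations from the line means. On most of the pluripotent arrays ST6GAL2 was under log2 5, where levels have no order, so its r rests largely on unmeasured levels. The marker mean was 5.75 to 6.69 in ORMES23, 5.89 to 7.02 in RiPS2, with C highest, and 5.59 to 6.62 in RiPS3. It was 5.28 to 5.83 in CRES-1, CRES-3 and RiPS1, where 2 of the 6 were under log2 5, and 6.17 to 6.70 in the fibroblasts. The part of these markers was not tested. A second probe set of ST6GAL2 read 3.55 to 4.44 on all arrays and showed no such difference.

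PTPRB encodes a receptor tyrosine phosphatase best known from endothelial cells, where it acts on the receptor TEK and on VE-cadherin. ORMES23 read 5.87, 6.96 and 6.83, CRES-1 read 6.31, 6.71 and 5.61, and RiPS1 read 5.70, 5.85 and 5.63. RiPS2 read 5.70, 5.27 and 5.34, CRES-3 read 4.82, 5.30 and 5.09, and RiPS3 read 4.67, 4.25 and 3.84. All arrays of RiPS1, RiPS2, CRES-3 and RiPS3 lay below the lowest of ORMES23, with RiPS1 just under it, while CRES-1 overlapped with ORMES23. That lowest array is ORMES23 A, which stood apart from B and C. The fibroblasts were highest, at 7.03, 8.66 and 8.10. Relative to ORMES23, PTPRB differed by -2.30 (SE 0.36, n = 3 per line) in RiPS3, -1.48 in CRES-3 and -1.11 in RiPS2. RiPS3 averaged under log2 5, so its difference is at least 2.93-fold. The size depended on the probe set, and so did the order of the lines. The other PTPRB probe sets gave -0.32 to -1.02 in RiPS3, and the mean over all 5 gave -1.02 in RiPS3, -0.76 in CRES-3 and -0.42 in RiPS2. The mean of 8 endothelial markers was 4.93 to 5.18 on the fibroblast arrays, where PTPRB was brightest, and 5.15 to 5.74 on the pluripotent arrays. Under log2 5 were 4 of the 8 in the fibroblasts and 2 or 3 in each pluripotent line. PECAM1 averaged 7.93 in the fibroblasts and 5.24 to 5.91 in the pluripotent lines, while TEK averaged 4.69 and 8.68 to 9.33. The part of these markers in the PTPRB values was not tested.

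**Figure D4:**
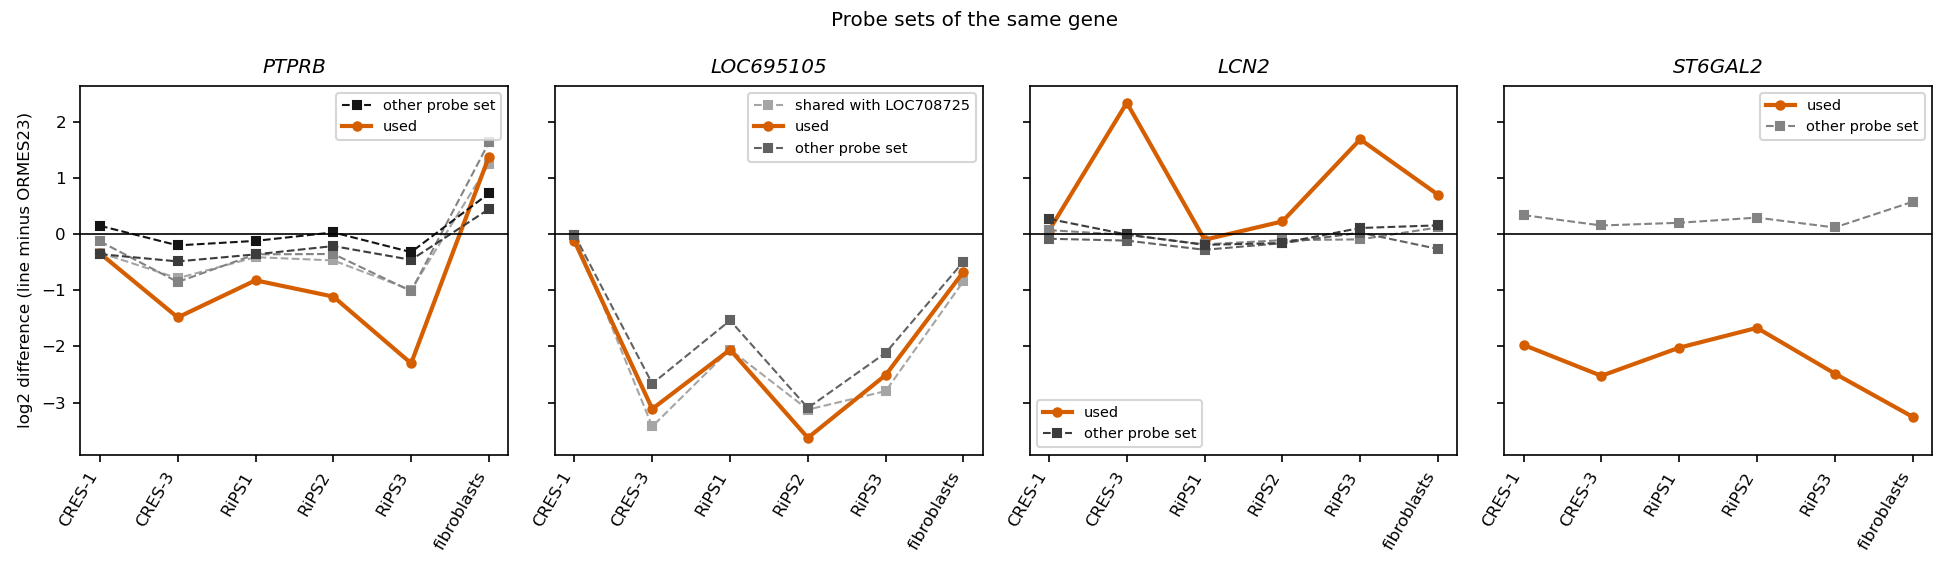
Log2 difference from ORMES23 (vertical axis) by line (horizontal axis) for each probe set of PTPRB, LOC695105, LCN2 and ST6GAL2; the thick orange line is the brightest probe set, which the report uses. The 3 LOC695105 probe sets drawn run together, those of PTPRB differ in size and in the order of the lines, and the dim probe sets of LCN2 and ST6GAL2 stay near 0.

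SECISBP2L is a relative of SECISBP2, the protein that lets ribosomes insert selenocysteine. ORMES23 read 7.63, 6.41 and 6.49 and RiPS1 read 6.71, 6.49 and 6.64. CRES-1 read 5.18, 5.69 and 5.46, and RiPS2 read 5.41, 5.18 and 3.33. CRES-3 (6.54, 5.87 and 4.99) and RiPS3 (6.54, 5.47 and 5.13) spread widely and overlapped with ORMES23. The difference from ORMES23 was -2.21 (SE 0.49, n = 3 per line) in RiPS2, -1.40 in CRES-1, -1.13 in RiPS3 and -1.04 in CRES-3. The value in RiPS2, which averaged under log2 5, is at least 3.59-fold. Single arrays carried much of this. Without RiPS2 C the value in RiPS2 was -1.55. Without ORMES23 A it was -1.81 in RiPS2, -1.01 in CRES-1, -0.74 in RiPS3 and -0.65 in CRES-3, and without CRES-3 C it was -0.64 in CRES-3.

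SP140 encodes a bromodomain protein of nuclear bodies that is mostly known from immune cells. ORMES23 was the lowest pluripotent line, at 5.38, 4.73 and 4.51. RiPS2 read 7.53, 5.85 and 6.70, RiPS1 read 6.29, 6.15 and 7.30, and CRES-1 read 6.47, 6.47 and 5.90. CRES-3 (5.65, 5.75 and 5.49) and RiPS3 (6.26, 5.23 and 5.15) lay between, and RiPS3 overlapped with ORMES23. The difference from ORMES23 was 1.82 (SE 0.39, n = 3 per line) in RiPS2, 1.71 in RiPS1 and 1.41 in CRES-1, with 0.76 in CRES-3 and 0.67 in RiPS3. Because ORMES23 averaged under log2 5, the first 3 are at least 3.24-, 2.99- and 2.43-fold. The lines nearest in order mostly overlapped.

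The comparison with the skin fibroblasts asks whether a gene that differs between pluripotent lines is one that fibroblasts express. It was not used to choose the genes, although it rests on the same pluripotent arrays. GCA rose in 6 of 6 pluripotent lines. GSTK1, PTPRB, SECISBP2L and HSBP1L1 fell in 6 of 6. LOC712157 fell in 5 and LOC695105 in 4, while SP140 was called higher in 5, ST6GAL2 in 4 and LCN2 in 1. For ST6GAL2, 3 of these calls compare means under log2 5 on both sides, and the fourth is the line through which it passed the filter. Between 7 and 9 of the 10 genes were called in each line, ST6GAL2 included (limma, Benjamini-Hochberg adjusted p under 0.05 and at least 2-fold). There were 7 in ORMES23, 8 in CRES-1, 9 in CRES-3, 9 in RiPS1, 8 in RiPS2 and 8 in RiPS3. Of all 11142 genes tested, 32.6%, 30.6%, 33.3%, 32.8%, 31.8% and 32.5% were called in these comparisons. All 6 share the fibroblast arrays, so they are not independent of each other. Fibroblast A was at least 2-fold lower than the other fibroblast arrays in 2 of the 10 genes, and fibroblast B higher in 2. Between 8 and 9 genes were called in each line without fibroblast A, and between 7 and 9 without fibroblast B.

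GCA stood 3.52 (ORMES23) to 6.10 (CRES-3) above the fibroblasts (SE 0.35, n = 3 per line; limma adjusted p at most 1.17e-07). The value in ORMES23 was 2.97 without ORMES23 A. In CRES-3 this was at least 33.8-fold and in ORMES23 at least 5.67-fold, since the fibroblasts were below log2 5. No pluripotent array overlapped with a fibroblast array. HSBP1L1 fell by 2.75 in RiPS2, the line in which it was brightest among pluripotent lines (SE 0.33, n = 3 per line; limma adjusted p at most 9.75e-07 over the 6 lines). In the other 5 lines, which averaged under log2 5 and have no order among them, it was at least 16.6-fold lower than in the fibroblasts.

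GSTK1 fell in ORMES23 (-4.12), CRES-1 (-4.08), RiPS2 (-3.63), RiPS1 (-2.65), CRES-3 (-2.15) and RiPS3 (-1.55) (SE 0.21, n = 3 per line; limma adjusted p at most 3.50e-06). RiPS3 thus lay nearest to the fibroblasts for this gene. LOC712157 fell in RiPS1 and CRES-1, which averaged under log2 5 (at least 22.9-fold in each), in ORMES23 (-4.36), CRES-3 (-1.95) and RiPS3 (-1.82) (SE 0.37, n = 3 per line; limma adjusted p at most 0.000317). In RiPS2 it was at -0.65 (limma adjusted p = 0.140) and overlapped with the fibroblasts.

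SECISBP2L fell in every pluripotent line, from -2.26 in ORMES23 to -4.47 in RiPS2 (SE 0.49, n = 3 per line; limma adjusted p at most 0.000557). RiPS2 averaged under log2 5, so its fall is at least 17.2-fold. It was -3.81 without RiPS2 C, and the value in ORMES23 was -2.65 without ORMES23 A. PTPRB fell in every pluripotent line as well, from -1.38 in ORMES23 to -3.68 in RiPS3 (SE 0.36; limma adjusted p at most 0.00295). RiPS3 averaged under log2 5, so its fall is at least 7.61-fold. With the mean of its probe sets PTPRB stood at -2.10 in RiPS3, -1.85 in CRES-3, -1.51 in RiPS2 and -1.50 in RiPS1, and each stayed called. LOC695105 fell in RiPS2 (-2.95), CRES-3 (-2.44), RiPS3 (-1.84) and RiPS1 (-1.38) (SE 0.28, n = 3 per line; limma adjusted p at most 0.000335). In ORMES23 it was 0.67 above the fibroblasts and in CRES-1 0.54 above, both under the 2-fold limit.

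ST6GAL2 averaged 2.75 in the fibroblasts, and ORMES23 was at least 2.00-fold higher. That difference carries no p, since the gene passed the filter through ORMES23. The differences of 1.58 in RiPS2, 1.28 in CRES-1 and 1.23 in RiPS1 are between line means that are under log2 5 on both sides (of these arrays RiPS2 C alone was above it), so their sizes are not measured. The call in CRES-1 was lost without CRES-1 C (limma adjusted p = 0.0788), and that in RiPS1 without RiPS1 C (0.0876) or fibroblast A (0.0533). SP140 rose by 2.20 in RiPS2, 2.08 in RiPS1 and 1.78 in CRES-1 (SE 0.39, n = 3 per line; limma adjusted p at most 0.000650). The fibroblasts averaged under log2 5, so these rises are at least 3.24-, 2.99- and 2.43-fold. The smaller differences of 1.13 in CRES-3 and 1.04 in RiPS3, at least 1.55- and 1.46-fold, depended on single arrays. The first was lost without fibroblast C (adjusted p = 0.0526). The second was lost without RiPS3 A (0.69, adjusted p = 0.151), fibroblast B (0.0615) or fibroblast C (0.0750). LCN2 rose by 1.64 in CRES-3 (SE 0.44, n = 3 per line; limma adjusted p = 0.00344), although fibroblast B overlapped with CRES-3. It was 1.06 without fibroblast A and 2.34 without fibroblast B.

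**Figure D5:**
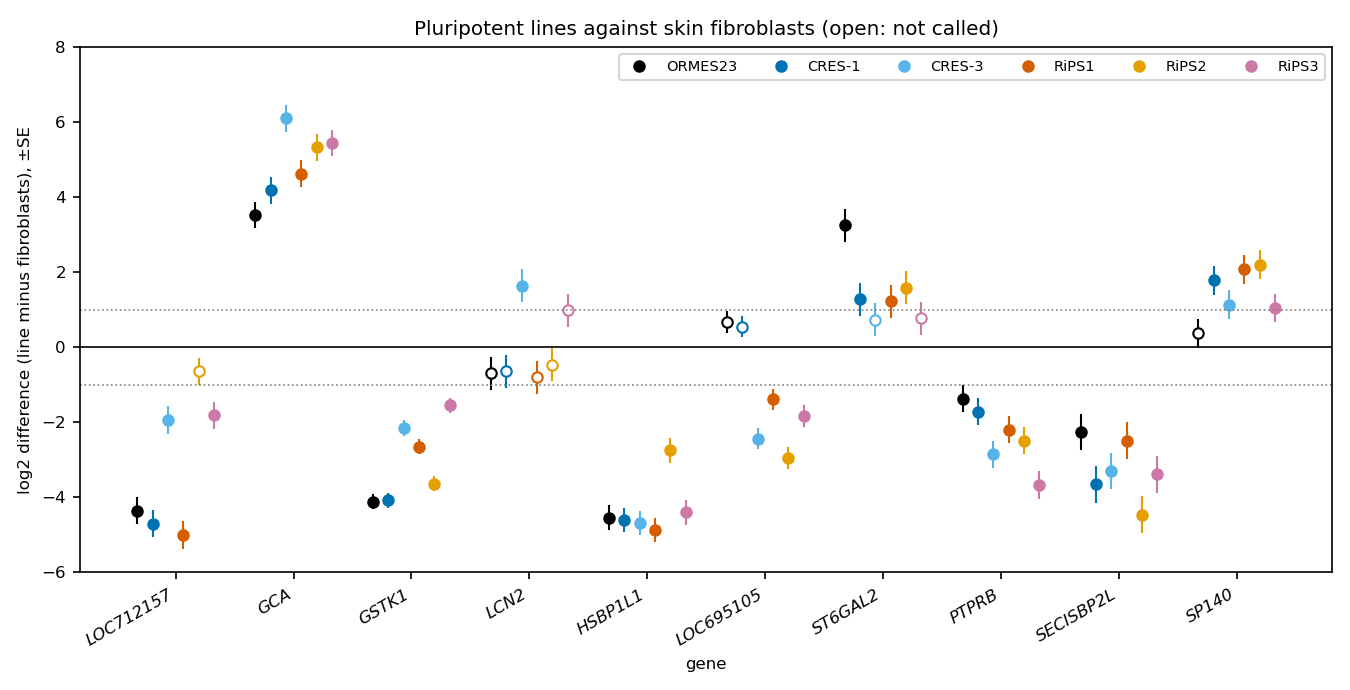
Log2 difference of each pluripotent line from the skin fibroblasts (vertical axis) for the 10 genes (horizontal axis), with the SE of the limma fit as bars; filled points were called and open points were not, and the dotted lines mark 2-fold. GCA is above 0 and GSTK1, HSBP1L1, PTPRB and SECISBP2L are below 0 in all 6 lines. The ST6GAL2 points other than ORMES23 compare means under log2 5 on both sides.

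Pairs of reprogrammed lines were then compared without ORMES23. The arrays of these lines took part in choosing the genes, so neither the counts called nor the p-values are independent of that choice. Nothing is read from an excess over the share of all genes. CRES-3 and CRES-1, the cloned lines, differed in 5 of 10 genes, against 2.61% of all genes tested. LOC712157 was higher in CRES-3 by 2.75 (SE 0.37, n = 3 per line; limma adjusted p = 0.000371), at least 5.93-fold. LCN2 was higher by 2.27 (limma adjusted p = 0.00523), GSTK1 by 1.93 (5.05e-05) and GCA by 1.92 (0.00371). LOC695105 was lower in CRES-3 (-2.98, limma adjusted p = 1.19e-05). In these 5 genes CRES-1 lay within 0.66 of ORMES23. The contrast thus largely repeats that of CRES-3 with ORMES23, which took part in the choice.

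CRES-3 against RiPS3, a cloned and an induced line both labelled female, showed no call among the 10 genes (0 by limma; 3 had an unadjusted p below 0.05). The share called over all genes was 0.0359%, and 882 genes had an unadjusted p below 0.05. Differences ran from -0.60 (GSTK1, SE 0.21) to 0.82 (PTPRB, SE 0.36), and the smallest adjusted p was 0.398. This does not show that the lines were equal in these genes. The arrays of GCA, GSTK1 and PTPRB did not overlap between the lines. The share of all genes without overlap in this pair was not counted, so nothing is read from that.

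CRES-1 against RiPS1, both labelled male, gave 2 of 10 called, against 2.14% of all genes. LOC695105 was higher in CRES-1 by 1.93 (SE 0.28, n = 3 per line; limma adjusted p = 0.000379) and GSTK1 was lower (-1.43, SE 0.21; limma adjusted p = 0.000326). RiPS2 and RiPS3, both from adult female donors, differed in 3 of 10, against 1.18% of all genes. GSTK1 was lower in RiPS2 (-2.09, SE 0.21, n = 3 per line; limma adjusted p = 2.81e-05). HSBP1L1 was higher by 1.65 (SE 0.33; limma adjusted p = 0.0112), and lost its call without RiPS2 C (0.0523), RiPS3 B (0.0836) or RiPS3 C (0.0539). LOC695105 was lower in RiPS2 (-1.12, limma adjusted p = 0.0372) and lost its call without RiPS2 B (0.0856), RiPS2 C (0.0824), RiPS3 A (0.0883) or RiPS3 B (0.144), and with the mean of its probe sets (0.0549). The call was also lost in a fit of these arrays alone (0.237). Without RiPS3 A, 5 of the 10 genes were called, and without RiPS2 C or RiPS3 B 1 was.

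Relatives and partners of the 10 genes were examined as 8 lists with 62 genes tested. Against ORMES23 a single one of them was called, GSTO1, the omega class glutathione transferase. It fell in CRES-3 (-1.58, limma adjusted p = 0.000553), RiPS1 (-1.48, 0.000316), RiPS2 (-1.12, 0.0137) and RiPS3 (-1.10, 0.0107), and was at -0.31 in CRES-1. Of all genes tested, 0.996% were called in CRES-3, 2.4% in RiPS1, 0.458% in RiPS2, 0.772% in RiPS3 and 0% in CRES-1. GSTK1 was higher in CRES-3, RiPS1 and RiPS3, so the omega and kappa genes were displaced in opposite directions there. Apart from GSTO1, the 13 glutathione transferases tested, 8 sialyltransferases, 10 receptor tyrosine phosphatases, 6 penta-EF-hand genes, 12 lipocalin and iron genes, 7 heat shock regulators and 4 selenoprotein synthesis genes had 0 calls against ORMES23. In the SP100 family, SP100 and SP110 were tested and were not called. SP110 stood at 0.67 in RiPS1 and 0.66 in RiPS2, under the 2-fold limit, where SP140 stood at 1.71 and 1.82.

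Against the fibroblasts, some of the 62 relatives were called in ORMES23, 14 higher and 12 lower, where 18.5% of all genes were higher and 14.1% lower. Of 10 receptor tyrosine phosphatases, 6 rose and 0 fell in ORMES23, and 5 or 6 rose in each other pluripotent line. PTPRB, which fell in all 6, was not the sole one to fall: PTPRR was called lower in CRES-3 (-1.10, SE 0.19; limma adjusted p = 6.92e-05) and in RiPS2 and RiPS3, where it averaged under log2 5. SP100 (-5.00) and SP110 (-1.46) fell in ORMES23 (limma adjusted p = 1.31e-15 and 4.61e-07), whereas SP140 was at 0.37 there. SEPHS1, of the list of selenoprotein synthesis genes, rose by 4.07 in ORMES23, whereas SECISBP2L fell.

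Some other genes followed a similar pattern over the 18 pluripotent arrays. These correlations are descriptions: 3 arrays share each line, and the best of 11142 genes is taken. The zinc finger gene ZNF799 was nearest to LOC712157 (Pearson r = 0.93), with line means of 7.80, 7.21 and 6.76 in CRES-3, RiPS2 and RiPS3 and 4.67, 3.72 and 3.77 in ORMES23, CRES-1 and RiPS1. SH3YL1 followed (0.88). GCA was nearest to LPL (0.93), the gene of lipoprotein lipase, and to the kinetochore gene CENPH (0.88). GSTK1 was nearest to ATRX (0.94), the gene of a chromatin remodeller, and AGA (0.92), that of a lysosomal enzyme. PTPRB was nearest to CD47 (0.91), LOC695105 to BPIFC (0.89), LCN2 to TMEM241 (0.89), ST6GAL2 to FAM222A (0.89) and SP140 to CRISPLD2 (0.87). The nearest genes of HSBP1L1 (MRPL54, 0.80) and SECISBP2L (CCDC91, 0.77) were less alike. MRPL54, a mitochondrial ribosomal protein gene, averaged 9.19 in RiPS2 and 6.50 to 7.64 in the other pluripotent lines. BPIFC, FAM222A, ST6GAL2 and HSBP1L1 averaged under log2 5 in most pluripotent lines, and ZNF799, LOC712157 and TMEM241 in some. Levels there have no order, so the r values that involve these genes rest partly or largely on unmeasured levels.

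Among themselves, the 10 genes did not move as a block. LOC712157 and GCA had the highest correlation over the 18 arrays (r = 0.75), followed by GCA with GSTK1 (0.71) and GCA with LCN2 (0.70). The most opposed were GSTK1 with PTPRB (-0.85), GCA with PTPRB (-0.82) and GCA with LOC695105 (-0.76). Genes chosen as higher or as lower than ORMES23 on these arrays tend to correlate or to oppose each other through that choice. The arrays also share lines, so these values are a description and nothing is read from them.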

How the data were processed

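The deposited table holds log2 intensities per probe set on 21 arrays, which the authors made with RMA, per the submitters' processing notes; for its version and chip description the sources used here give nothing. RMA fits probes over all arrays and equalizes their distributions, so levels of different probe sets are not compared. Of 52865 probe sets, 24969 carried 1 gene symbol in the platform annotation, 361 several and 27535 none; those with several or none and the 99 control probe sets were left out of gene tests. Each of 14132 genes was read from its brightest probe set, and the 11142 genes that reached log2 5 on 3 arrays entered the tests. limma 3.58.1 in R 4.3.3 fitted a mean per line over all arrays (14 residual degrees of freedom), with Benjamini-Hochberg adjustment over all genes, and was tested on simulated data. Errors are the SE of that fit. The 10 genes and the lists were chosen with earlier results of these data known. Named genes are the 10, for each list up to 2 genes with the smallest p against ORMES23 in any line, the 2 most alike genes, up to 3 neighbours on either side and the markers. Alternatives were the mean of probe sets, no filter, median centring, a replicate block, a fit of the compared arrays alone and leaving out each array. No array duplicated another (highest correlation 0.996), and their number limits the precision. No pairing by letter common to all lines was seen: deviations of same-letter arrays correlated at a mean of 0.01 (-0.41 to 0.44), over 0.1 in 20 of 63 pairs. Whether some lines were handled together by letter was not tested.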

Additional observations from a re-analysis of the deposited data

Results flagged for a closer look

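LOC695105 differed in its contrast of a cloned with an induced line between the labelled male pair and the labelled female pair. It was 1.93 higher in CRES-1 than in RiPS1 (labelled male) and 0.60 lower in CRES-3 than in RiPS3 (labelled female). The difference between these differences was -2.53 (SE 0.40; limma adjusted p = 0.00189). Each line is a single derivation, so this p-value measures the spread between arrays and not that between sexes. RiPS1 is of fetal and RiPS3 of adult origin, so labelled sex, donor age and line cannot be told apart. Because probe sets are shared, the signal cannot be assigned to LOC695105 alone. The test was added after the data were seen, on a gene chosen from these arrays, and 543 of 11142 genes tested passed at the same adjusted p. Over 15 alternatives it ran from -2.81 to -2.24, with adjusted p between 0.00122 and 0.00755. The other 9 genes did not pass; GSTK1 came nearest, at 0.83 (limma adjusted p = 0.116).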

How the results depend on the processing

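Every one of 91 differences printed or called (at least 2-fold from ORMES23, or called elsewhere) kept its direction under every alternative that gave it a value, 956 values in all. The loss of a call was scored only in contrasts other than those against ORMES23, and 16 values lost theirs. Against ORMES23 a value was scored instead by whether it moved by more than the spread of the arrays. Values scored as unmoved could still fall under 2-fold, as did GCA in RiPS1 (0.73 without ORMES23 C) and SECISBP2L in CRES-3 (-0.65 without ORMES23 A). The 3 that moved are PTPRB against ORMES23 with the mean of its probe sets. That setting also left 5 rather than 8 of the genes at least 2-fold from ORMES23 in CRES-3, because LCN2 and ST6GAL2 then fell under the filter and PTPRB stood at -0.76. Leaving out single arrays moved the number called in RiPS2 against RiPS3 between 1 and 5, around 3. With the replicate block no count of the 10 genes changed, for example 9 in CRES-3 against the fibroblasts. Over all genes, leaving out single arrays gave 43 to 283 calls for RiPS2 against RiPS3 (131 with all arrays, 46 with these arrays alone), 1 to 20 for CRES-3 against RiPS3 (4, and 7 alone) and 142 to 293 for CRES-3 against CRES-1 (291). Against ORMES23 they gave 0 to 40 in CRES-1 (0 with all arrays, 8 with the replicate block, 1 with the mean of probe sets), 52 to 194 in CRES-3 (111), 27 to 74 in RiPS2 (51) and 34 to 182 in RiPS3 (86). Levels under log2 5 have no order, which limits ST6GAL2, HSBP1L1 and LOC712157 most.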

Other observations

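The chromosomal neighbours of the 10 genes were described beside them. Of 60 neighbours (3 on either side, in the order of the T2T-MMU8v2.0 assembly), 19 were tested. Their correlation with the gene over the 18 pluripotent arrays ran from -0.81 to 0.80, with a median of 0.17. Correlations with genes that are not neighbours were not counted beside these, so nothing is read from them. Against ORMES23, 1 of the 19 was called in any line: PURA, 3 genes away from LOC695105. Of all genes tested, 0% (CRES-1) to 2.4% (RiPS1) were called in these contrasts, so nothing is read from the count. The signal of LOC695105 cannot be assigned to that gene alone, so these may not be the neighbours of the gene that was read. PURA fell in RiPS1 (-1.31), where LOC695105 stood at -2.06. In CRES-3, RiPS2 and RiPS3, where LOC695105 was also lower, PURA stood at -0.16, -0.03 and 0.07. SP110 was nearest to its neighbour SP140 (r = 0.80). TXNL4A, a splicing factor gene beside HSBP1L1, was the most opposed (r = -0.81) and stood at -0.76 in RiPS2 against ORMES23, not called, where HSBP1L1 was higher by 1.79. TMED3, 3 genes away from LOC712157, was within 0.18 of ORMES23 in all 5 reprogrammed lines, while LOC712157 ran from -0.65 to 3.71.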
